A study of Mus musculus with 6 samples.

Results

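Zinc finger proteins that carry a serial number in their name form one of the largest groups of DNA-binding proteins in mammals, and 79 of them were bright enough on liver arrays to be described here. They were chosen by description and level: the gene description had to read "zinc finger protein" with a number, zinc finger protein 36 and its relatives were set aside, the brightest target row of each gene name was kept, and its mean over all 6 arrays had to reach a log2 intensity of 7. The description matched 411 of 44170 target rows, which held 291 gene names, and 79 of the 291 reached the limit. The group labels were not used in this choice, but a gene that is high in one group can pass the limit through that group alone: 64 members had both group means at or over 7, 10 had only the LPS mean there and 5 only the LPS/GalN mean, while 12 genes below the limit had 1 group mean at or over it.

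The arrays measured total RNA from the livers of 6 wild-type male C57 BL/6 mice of 9-10 weeks, 1 mouse to an array and each from a treatment of its own. The LPS group (n = 3) received 0.01 µg of LPS, lipopolysaccharide, a component of bacterial outer membranes that triggers an innate immune response. The LPS/GalN group (n = 3) received that dose of LPS and 20 mg of GalN, galactosamine, a sugar that hepatocytes take up and that uses up their uridine nucleotides and so holds back their RNA synthesis. Both groups were taken 2.5 h after treatment. All 6 mice had LPS; untreated mice and mice with GalN alone were not analysed here. Loss of a transcript and weaker induction by LPS therefore cannot be told apart.

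A classical zinc finger is a short fold held by a zinc ion that reads a few base pairs, and arrays of such fingers give each protein its own DNA target. Many numbered members also carry a KRAB domain, which recruits the corepressor Trim28 and, through it, chromatin enzymes that silence repeated elements and imprinted regions. The numbered name is historical, however, and also covers transcription factors with BTB domains, ubiquitin ligases, splicing factors and ribosome-associated proteins. Of the 79 members, 70 had a RefSeq symbol by name, older name or accession: 53 were still Zfp with a number, and 17 had another symbol, such as Zbtb20, Arfgap2, Zpr1, Rnf114 or Sf1. Another 7 were described only as similar to, or inferred to be, a numbered protein; clone or older names tied 2 of these to current genes, Zfp949 and Scaper, and the rest keep their description here.

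Of the 79 members, 6 were lower in LPS/GalN and 1 was higher (limma, Benjamini-Hochberg adjusted p under 0.05 over all 35208 features), against 3.03% of all features lower and 0.622% higher. Those 6 were Zfp949, Zfp296, Zfp281, Zfp507, Zfp110 and Zfp1, with falls of 2.36-fold to 8.23-fold, and the 1 that rose was a target described as weakly similar to zinc finger protein 91 (91-similar in the plots). Because dim features seldom pass the threshold, features with the same minimum mean of 7 are the nearer background: 7.28% of these 12230 were lower and 1.12% higher, and the members' shares of 7.59% and 1.27% lie near it. The calls therefore describe single genes and set the members apart from no other genes of that brightness. Of the 7 called members, 4 had both group means over the limit, while Zfp949, Zfp296 and Zfp507 passed it through their LPS levels.

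The sequences upstream of 4 of the 6 genes that fell are shown first, since these genes share a direction and their starts are annotated. They are RefSeq sequences on GRCm38.p6, the 250 bases before the annotated start, 5′ to 3′ along the gene. Capitals mark matches, on either strand, to GGGCGG (the GC box), to CCAAT (the CCAAT box) or to CCGGAAG (an ETS motif), which are common in promoters. The windows are chr9:88547770-88548019 (+) for Zfp949, chr1:136624651-136624900 (+) for Zfp281, chr7:35802990-35803239 (-) for Zfp507 and chr7:12834511-12834760 (+) for Zfp110.
Zfp949: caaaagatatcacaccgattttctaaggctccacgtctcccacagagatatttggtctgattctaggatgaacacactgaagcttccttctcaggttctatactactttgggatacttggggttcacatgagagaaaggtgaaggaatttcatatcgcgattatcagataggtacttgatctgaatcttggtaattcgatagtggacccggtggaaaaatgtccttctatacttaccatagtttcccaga
Zfp281: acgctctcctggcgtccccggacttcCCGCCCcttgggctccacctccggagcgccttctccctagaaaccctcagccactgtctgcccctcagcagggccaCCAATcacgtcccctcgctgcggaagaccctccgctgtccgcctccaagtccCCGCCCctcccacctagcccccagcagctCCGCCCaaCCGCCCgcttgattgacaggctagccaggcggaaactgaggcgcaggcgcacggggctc
Zfp507: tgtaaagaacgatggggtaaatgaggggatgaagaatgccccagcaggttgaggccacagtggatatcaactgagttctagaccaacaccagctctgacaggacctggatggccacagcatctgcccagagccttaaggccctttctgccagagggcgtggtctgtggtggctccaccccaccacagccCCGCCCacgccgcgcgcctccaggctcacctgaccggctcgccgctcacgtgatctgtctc
Zfp110: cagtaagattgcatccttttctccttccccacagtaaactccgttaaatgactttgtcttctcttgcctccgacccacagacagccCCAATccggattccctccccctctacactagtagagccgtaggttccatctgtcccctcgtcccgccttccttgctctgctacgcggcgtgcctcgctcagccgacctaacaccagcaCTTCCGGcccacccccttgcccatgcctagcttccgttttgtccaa
The windows differ widely in composition: 69.6% of bases were G or C for Zfp281, 60.8% for Zfp507, 56.8% for Zfp110 and 41.2% for Zfp949. Those of Zfp296 and Zfp1, not printed, had 64.0% and 44.8%. GGGCGG occurred 4 times for Zfp281, 3 times for Zfp296 and 1 time for Zfp507, and 0 times for the other 3. None of the 6 windows held a match to the NF-kB motif, the STAT motif TTCNNNGAA, the interferon response motif (ISRE), the TATA box TATAAA or the AP-1 motif TGANTCA; matches of different motifs may overlap. Over the 61 members with a promoter in the table, GGGCGG lay in 59.0% of windows, against 32.9% of the 27025 genes with one; CCAAT lay in 44.3% against 34.5%, and CCGGAAG in 16.4% against 7.05%. The NF-kB motif lay in 8.20% of member windows against 3.75% of all, the STAT motif in 9.84% against 7.18%, the ISRE in 0 of 61 against 3.04%, the TATA box in 8.20% against 13.0% and the AP-1 motif in 3.28% against 6.87%. The 27025 genes were taken whatever their level in liver, whereas the members had to reach a mean of 7. These shares are therefore not at a like level, and none is given here for genes as bright as the members. A match is a run of letters, not evidence of binding.

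The largest difference belonged to Zfp949, whose target the array describes as weakly similar to the human protein 33A (clone name 4930422I07, an older name of Zfp949 in RefSeq; chromosome 9, 88442857 to 88463688 on mm9). Its log2 intensity was 8.95, 8.96 and 8.81 on LPS arrays 1 to 3 and 6.32, 5.25 and 6.03 on LPS/GalN arrays 1 to 3. The groups were far apart, with a tight LPS group and an LPS/GalN group not far above random probes (4.97 to 5.12). The level was 8.23-fold lower in LPS/GalN (log2 difference -3.04 ± 0.30, SE; adjusted p = 0.00174 by limma). A separate target at the same place, listed under the clone name and outside the choice of members, was lower too, by -2.29 ± 0.29 (adjusted p = 0.0041 by limma, all target rows fitted); whether the probes of the 2 targets overlap is not known. A row of the same description on chromosome 7, with a mean of 5.05 near background, differed by 0.12. The clone name alone links the chromosome 9 target to Zfp949, and the chromosome 7 row is another locus.

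Zfp281 encodes a GC-box-binding factor best known from pluripotent cells, where it restrains Nanog (chromosome 1, 138521521 to 138524866 on mm9). Its log2 intensity was 9.17, 8.93 and 8.95 in LPS and 6.79, 7.17 and 7.77 in LPS/GalN. Every LPS array lay more than a log2 unit above every LPS/GalN array, and the LPS/GalN arrays spread more. Zfp281 was 3.42-fold lower (-1.77 ± 0.29, adjusted p = 0.0134 by limma), and its second target row gave -1.52 ± 0.27 (adjusted p = 0.02). Zfp148, its close relative that binds similar GC-rich sites, read 9.37, 9.10 and 9.91 in LPS and 9.52, 9.58 and 10.13 in LPS/GalN. These groups overlapped (0.29 ± 0.29, adjusted p = 0.679 by limma), and the difference between the relatives was not tested.

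Zfp296, a factor also known from pluripotent and germ cells (chromosome 7, 20162555 to 20166004), read 8.19, 8.75 and 9.09 in LPS and 6.57, 6.81 and 7.30 in LPS/GalN. It was 3.43-fold lower (-1.78 ± 0.31, adjusted p = 0.0194 by limma). Zfp507 (chromosome 7, 36557361 to 36623898) read 7.67, 8.12 and 8.06 in LPS and 6.46, 6.34 and 6.30 in LPS/GalN. The LPS/GalN arrays of Zfp507 lay close together, and the gene was 2.99-fold lower (-1.58 ± 0.23, adjusted p = 0.00764 by limma). Its second row, with a mean of 5.62, gave -0.30 ± 0.36.

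Zfp110, which encodes an interactor of the p75 neurotrophin receptor (chromosome 7, 13420409 to 13435926), read 8.75, 8.83 and 8.90 in LPS and 6.73, 7.69 and 7.72 in LPS/GalN. LPS/GalN array 1 was about a log2 unit below the other 2, and the gene was 2.72-fold lower (-1.44 ± 0.31, adjusted p = 0.0425 by limma). Zfp1, a KRAB zinc finger gene (chromosome 8, 114167342 to 114194911), read 8.38, 8.38 and 8.49 in LPS and 7.19, 6.87 and 7.49 in LPS/GalN. It was 2.36-fold lower (-1.24 ± 0.24, adjusted p = 0.0289 by limma). The other 2 rows of Zfp1 gave -0.57 and -0.55, and neither passed the threshold.

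The called rise was a target weakly similar to zinc finger protein 91 (chromosome 11, 58120988 to 58123167), to which no current gene could be assigned. It read 8.30, 8.24 and 8.31 in LPS and 9.19, 9.38 and 9.47 in LPS/GalN. Both groups were tight and did not overlap, and the level was 2.09-fold higher (1.06 ± 0.21, adjusted p = 0.0317 by limma). The gene Zfp672 lies 5470 bp away and differed by -0.01 ± 0.32.

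**Figure D1:**
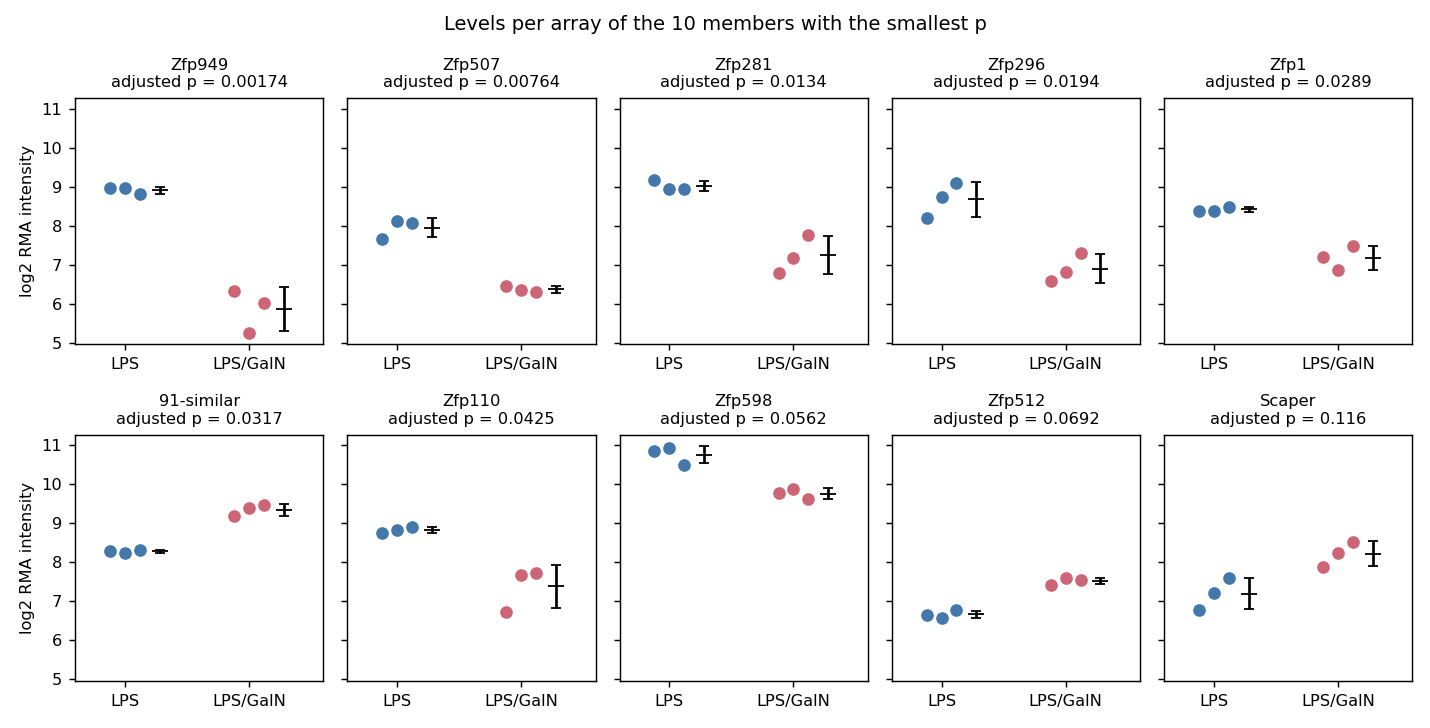
Log2 RMA intensity on each array (dots; LPS blue, LPS/GalN red; n = 3 each) for the 10 members with the smallest p, with the group mean and SD as a black mark and bar. In the 7 called members, Zfp949 to Zfp110 in the plot's order, the groups do not overlap; Zfp598, Zfp512 and Scaper are also separated but have adjusted p of 0.0562, 0.0692 and 0.116.

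How far these calls hang on single arrays differed between genes. Zfp949 and Zfp507 passed the threshold whichever single array was omitted (highest adjusted p of 0.0134 and 0.0426 by limma), and the other 5 lost it at least once: Zfp281 up to 0.0674, Zfp296 up to 0.0811, Zfp1 up to 0.104, the 91-like target up to 0.119 and Zfp110 up to 0.133. The number of members lower ranged from 2 (without LPS array 2, or without LPS/GalN array 2) to 7 (without LPS/GalN array 1), with 3 without LPS array 1 or 3, and the number higher from 0 to 1; the calls over all features moved too, from 627 lower (without LPS array 1) to 1069 (without LPS array 3) and from 37 to 627 higher. In the fits with 2 members lower (2.53%), 1.89% and 2.08% of all features were lower, and in the fit with 7 (8.86%) it was 2.94%. The called rise was kept with LPS/GalN array 1 left out and lost without any of the others. The log2 differences themselves stayed between -3.27 and -2.73 for Zfp949 and between -1.72 and -1.50 for Zfp507.

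Transcripts of other tissues were present on some arrays. Of 18 measured thymus and T-cell markers, all had a higher mean in LPS/GalN. The log2 of their summed intensity, the sum given for each list here, was 9.87 to 10.46 on the LPS arrays. It was 10.19 on LPS/GalN array 1, and 14.42 and 13.74 on LPS/GalN arrays 2 and 3. Of 16 measured intestine markers, all had a lower mean in LPS/GalN, and 1 was called, Tff3 (-1.98, adjusted p = 0.0263 by limma). Their sum was 15.72 and 15.84 on LPS arrays 1 and 2, 13.05 on LPS array 3 and 12.56 to 12.75 in LPS/GalN. Their median log2 intensity was 11.15 and 11.58 on LPS arrays 1 and 2, 5.90 on LPS array 3 and 5.63 to 5.71 in LPS/GalN. Hepatocyte markers had sums of 18.66 to 18.75, carried by the brightest genes; of the 12, G6pc alone passed the threshold, reading 7.85, 8.06 and 11.26 in LPS and 13.03, 13.11 and 12.93 in LPS/GalN (3.96, adjusted p = 0.0363 by limma), lowest on LPS arrays 1 and 2. Among markers of other liver cells, 3 of 11 of sinusoidal endothelium were called higher (Pecam1 by 1.39, Tie1 by 1.07 and Egfl7 by 1.81), with sums of 12.68 to 13.37 in LPS and 13.80 to 14.12 in LPS/GalN. All 10 Kupffer cell markers had a higher mean in LPS/GalN, with 0 called and 7 at an unadjusted p under 0.05 by limma, and sums of 13.37 to 13.95 against 14.41 to 14.58. Of 9 neutrophil markers 2 were called lower, S100a8 (-1.66) and S100a9 (-1.55), and of 5 bile duct markers 1, Sox9 (-2.91). Epcam (-3.11) and Krt19 (-2.81) were not called and were high only on LPS arrays 1 and 2, while Krt7 and Spp1 gave 0.30 and 0.31. For these counts, 3.03% of all features were called lower and 0.622% higher, and 9.09% and 8.57% were lower and higher at an unadjusted p under 0.05. The part of these cell types in the members' values was not tested. Without LPS/GalN arrays 2 and 3, Zfp949 was the 1 member called (-2.59, adjusted p = 0.036 by limma), 1.27% of the members, against 0.699% of all features lower in that fit (246 features, and 16 higher); Zfp281 gave -2.23 (0.055), Zfp110 -2.09 (0.0582), Zfp296 -2.10 (0.125), Zfp507 -1.49 (0.164), Zfp1 -1.23 (0.186) and the 91-like target 0.90 (0.306). Without LPS arrays 1 and 2, the differences of the 7 genes were -2.94, -1.71, -1.52, -2.19, -1.69, -1.31 and 1.03 in the same order. In both cases 1 array stands for a group and is taken to vary like the other group. On LPS array 3 and LPS/GalN array 1, where neither marker list was high, Zfp949 read 8.81 and 6.32, and Zfp281 8.95 and 6.79. In whole liver, fewer cells of a type and less RNA per cell cannot be told apart.

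Taken as a set, the members leaned slightly towards lower levels in LPS/GalN. Their median log2 difference was -0.16 (quartiles -0.63 and 0.36), against 0.11 for all features with a mean of at least 7 and 0.05 for all features. Of the 79, 44 were negative and 35 positive; 9 were at -1 or below and 3 at 1 or above. Groups did not overlap for 21 of 79 members lower and 12 of 79 higher, together 41.8%. Among features as bright it was 18.5% and 22.4%, together 40.9%, and among all features 11.1% and 13.0%. At an unadjusted p under 0.05 by limma, 17 of 79 members were lower and 12 of 79 higher. Of the 12230 features as bright, 1928 (15.8%) were lower and 1508 (12.3%) higher, and of all features 9.09% and 8.57%. The median turned to 0.015 without LPS/GalN arrays 2 and 3 and was -0.25 without LPS arrays 1 and 2, so its sign rests on those LPS/GalN arrays. The median member had an SD of 0.28 in LPS and 0.31 in LPS/GalN and an SE of the difference of 0.28.

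**Figure D2:**
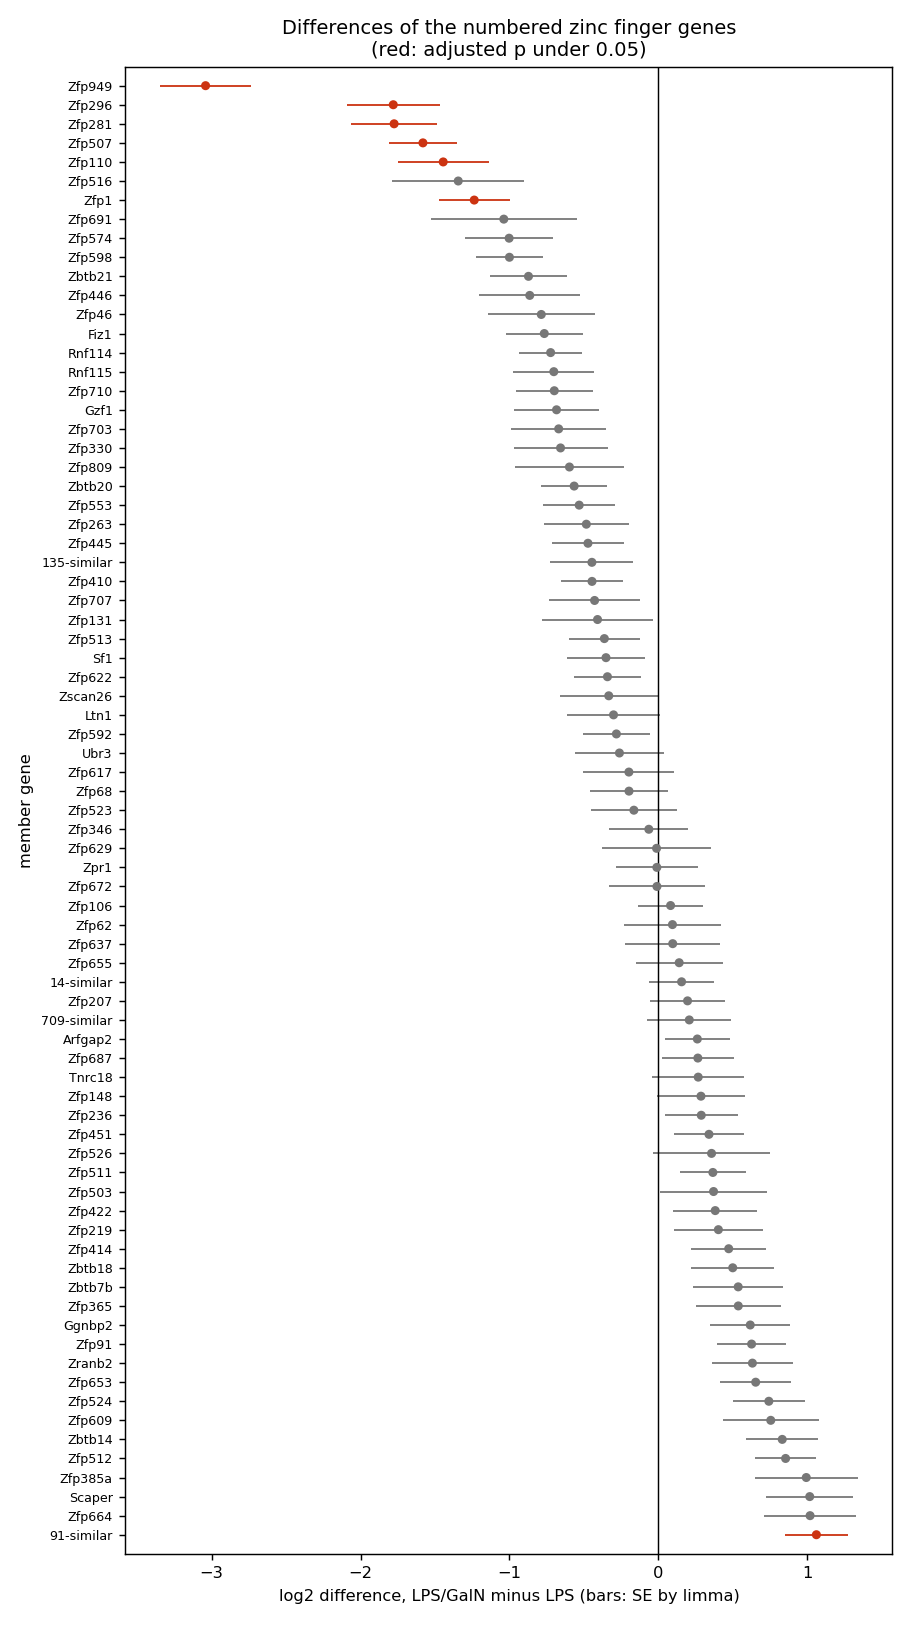
Log2 difference, LPS/GalN minus LPS, of the members (dots; 2 of the 79 are not shown) with its SE by limma (bars), ordered from lowest to highest; red marks adjusted p under 0.05. The 6 called falls run from -3.04 to -1.24 and the called rise is 1.06; Zfp516 lies among the falls at -1.34 but with a wide SE of 0.44.

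**Figure D3:**
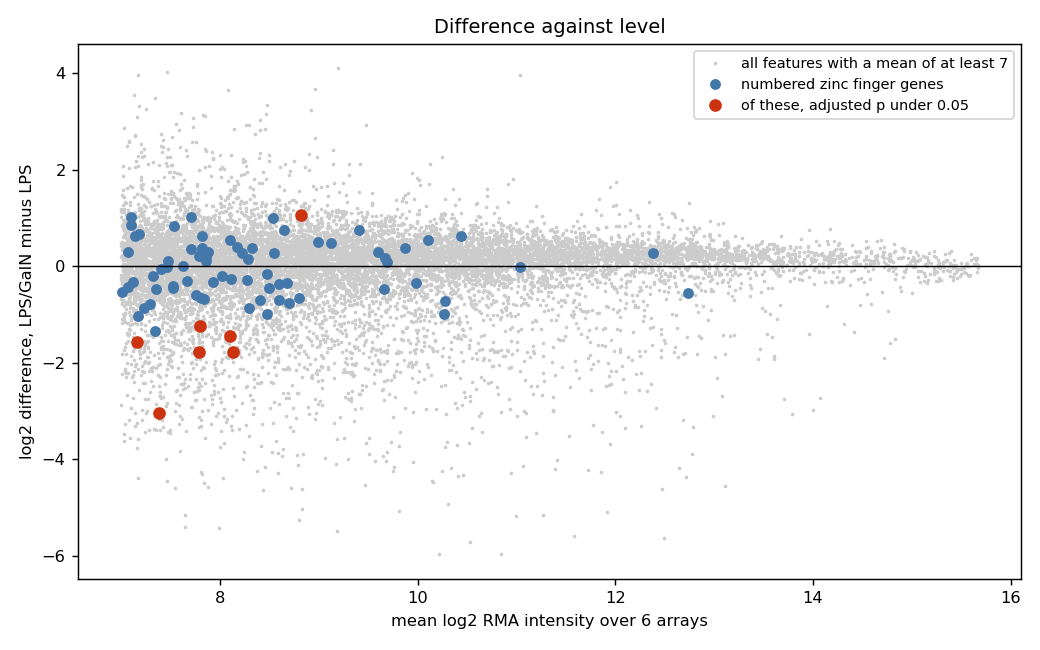
Log2 difference against mean log2 intensity for the 12230 features with a mean of at least 7 (grey), the 79 members (blue) and the 7 called members (red). The members lie within the cloud of features as bright, and of the 15 members with a mean of 9 or more 0 passed by limma (3 lower and 2 higher at an unadjusted p under 0.05).

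Members that act on ubiquitin or SUMO, grouped here by known role after the values were seen, had 0 of 7 called and, at an unadjusted p under 0.05, 3 lower and 1 higher by limma. Among features as bright, 7.28% were called lower and 1.12% higher, and 15.8% and 12.3% were lower and higher at an unadjusted p under 0.05, so in groups of 5 to 7 genes a count of 0 called is near the background. Zfp598, the ligase that marks collided ribosomes, read 10.86, 10.92 and 10.51 in LPS and 9.78, 9.89 and 9.62 in LPS/GalN. Its groups were well separated, but the difference of -1.0 ± 0.23 missed the threshold (adjusted p = 0.0562 by limma) and passed it under 6 of the alternatives listed at the end. Rnf114 read 10.72, 10.73 and 10.47 in LPS and 9.95, 9.89 and 9.92 in LPS/GalN, also without overlap (-0.72 ± 0.21, adjusted p = 0.121 by limma), and Rnf115 differed by -0.70 ± 0.27 (0.235). Ltn1, the ligase that tags stalled nascent chains on the large ribosomal subunit, gave -0.30 ± 0.31, and Ubr3 -0.26 ± 0.30. Zfp451, a SUMO ligase, gave 0.34 ± 0.23. Zfp91, a ligase that acts in non-canonical NF-kB signalling, read 10.36, 9.89 and 10.14 in LPS and 10.93, 10.78 and 10.57 in LPS/GalN. It stood higher without overlap, and its difference of 0.63 ± 0.23 missed the threshold (adjusted p = 0.213 by limma).

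Members that bind RNA or act on ribosomes, grouped in the same way, had 0 of 7 called and, at an unadjusted p under 0.05, 0 lower and 2 higher by limma, against the same shares (7.28% and 1.12% called, 15.8% and 12.3% unadjusted). Zfp385a, which encodes an RNA-binding partner of p53, read 8.22, 7.55 and 8.37 in LPS and 9.37, 9.32 and 8.42 in LPS/GalN (1.0 ± 0.34, adjusted p = 0.184 by limma). LPS/GalN array 3 was barely above the highest LPS array. Zranb2, a splicing regulator, read 7.30, 7.74 and 7.47 against 7.77, 8.10 and 8.54 (0.63 ± 0.27), and its rows under the current name gave 0.90 and 0.56. Sf1, which recognises the intron branch point, gave -0.35 ± 0.26, and a much brighter row under its current name (mean 13.66) gave -0.20. Zfp622, a factor of large-subunit maturation, gave -0.34 ± 0.22, Zfp330, a nucleolar protein, -0.66 ± 0.32, Zfp346, which binds double-stranded RNA, -0.06 ± 0.27, and Zfp106 0.08 ± 0.22. Zfp207, which loads the checkpoint protein Bub3 on kinetochores, gave 0.20 ± 0.25.

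The 5 members whose current symbol names a BTB domain (Zbtb) had 0 called. At an unadjusted p under 0.05, 2 of them were lower and 1 higher by limma. Among features as bright the shares were again 7.28% and 1.12% called, and 15.8% and 12.3% unadjusted. Other members were not searched for BTB domains, so this group may be incomplete. Zbtb20, a repressor of alpha-fetoprotein in liver and the brightest target among the members, read 13.05, 13.05 and 12.95 in LPS and 12.70, 12.25 and 12.41 in LPS/GalN. The groups did not overlap, and the difference was -0.56 ± 0.22 (adjusted p = 0.238 by limma). Zbtb21 gave -0.87 ± 0.26 (0.128). Zbtb14 read 6.90, 6.95 and 7.49 against 7.96, 7.98 and 7.90, higher without overlap (0.83 ± 0.24, adjusted p = 0.119 by limma). Its other row, with a mean of 7.32, gave -0.18 ± 0.37, so the rows of Zbtb14 disagree. Zbtb7b, known as the CD4 lineage factor ThPOK, gave 0.54 ± 0.30 and Zbtb18 0.50 ± 0.28; their arrays overlapped.

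Several members known for silencing or for development were measured with no call. Zfp809, which silences retroviral DNA, read 8.20, 7.96 and 8.02 in LPS and 7.95, 6.61 and 7.84 in LPS/GalN, where array 2 was low (-0.60 ± 0.37, adjusted p = 0.458 by limma). Zfp445, a guardian of imprinted regions, gave -0.47 ± 0.24, and Zfp410, an activator of Chd4, -0.44 ± 0.21. Zfp516, a factor of brown fat, read 8.50, 7.69 and 7.84 against 7.51, 6.72 and 5.78; the groups were separated but the spread within LPS/GalN was large (-1.34 ± 0.44, adjusted p = 0.164 by limma). Zfp703 gave -0.67 ± 0.32, Zfp263 -0.48 ± 0.28 and Zfp219 0.40 ± 0.30. Zfp503 gave 0.37 ± 0.36 on its brightest row, whereas its dimmest row rose by 1.98 ± 0.27 (adjusted p = 0.00576 by limma with all rows fitted) and the remaining row gave 0.25, so the rows of this gene disagree. Of 33 genes with known roles that had been listed to be reported, 18 were members, 9 lay below the limit and 6 were not matched; Zfp57, the silencer of imprinted regions, lay below it with a mean of 6.36.

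Arfgap2, which encodes a GTPase-activating protein of Golgi coat vesicles, and Zpr1, which binds a translation elongation factor, were the next brightest targets. Arfgap2 read 12.07, 12.21 and 12.47 in LPS and 12.64, 12.47 and 12.44 in LPS/GalN, a difference of 0.26 ± 0.22. Zpr1 differed by -0.01 ± 0.27. Intensities of different targets depend on their probes, so this order is one of signal and not of transcript number. Zfp512 read 6.64, 6.59 and 6.77 in LPS and 7.43, 7.59 and 7.55 in LPS/GalN; the groups were tight and apart, and 0.86 ± 0.21 missed the threshold (adjusted p = 0.0692 by limma). Scaper, listed as an inferred zinc finger protein 291, gave 1.02 ± 0.29 and Zfp664 1.02 ± 0.31, with adjusted p of 0.116 and 0.134.

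Of the genes that work with KRAB zinc finger proteins in silencing, 23 of a list of 24 were measured and 0 passed the threshold. At an unadjusted p under 0.05, 1 was lower and 3 were higher by limma. Of all features, 3.03% were called lower and 0.622% higher, and 9.09% and 8.57% were lower and higher at an unadjusted p under 0.05. With 23 genes, the counts are near these shares. The median difference of the 23 was 0.34, against 0.05 for all features and 0.11 for those with a mean of at least 7. Setdb1 and Hdac2, with means of 4.61 and 4.86, lay below the random probes (4.97 to 5.12), so a change in them could hardly be seen. Trim28, the corepressor, read 10.03, 9.96 and 10.03 in LPS and 10.09, 10.50 and 10.16 in LPS/GalN (0.24 ± 0.22). Morc3 gave -1.28 ± 0.30 (adjusted p = 0.0602 by limma). Uhrf1, which maintains DNA methylation and is high in dividing cells, read 7.62, 6.68 and 6.57 in LPS and 7.79, 10.47 and 9.52 in LPS/GalN, and the methyltransferase gene Dnmt1 8.30, 7.81 and 8.51 against 8.68, 10.50 and 9.25. Both were high on LPS/GalN arrays 2 and 3, the arrays with high thymus markers; the part of those markers in these values was not tested.

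Most numbered zinc finger genes gave little signal in liver, as did most features of any kind. A mean of 7 was reached by 79 of the 291 genes and by 12230 of all 35208 features. The median log2 intensity of all features was 5.94 to 6.00 on the 6 arrays. The 212 below the limit included 83 above random probes on all 6 arrays, and 2 above them on no array; all 79 members were above them on every array. The median member had a mean of 8.02, and 7 reached 10. Just inside the limit lay Zfp707 (7.07), Zfp236 (7.07) and Zfp553 (7.01), with differences of -0.43, 0.29 and -0.53; just outside lay Zfp395 (6.99), Zfp628 (6.93) and Zfp324 (6.93), with 1.67, -0.90 and -0.85.

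**Figure D4:**
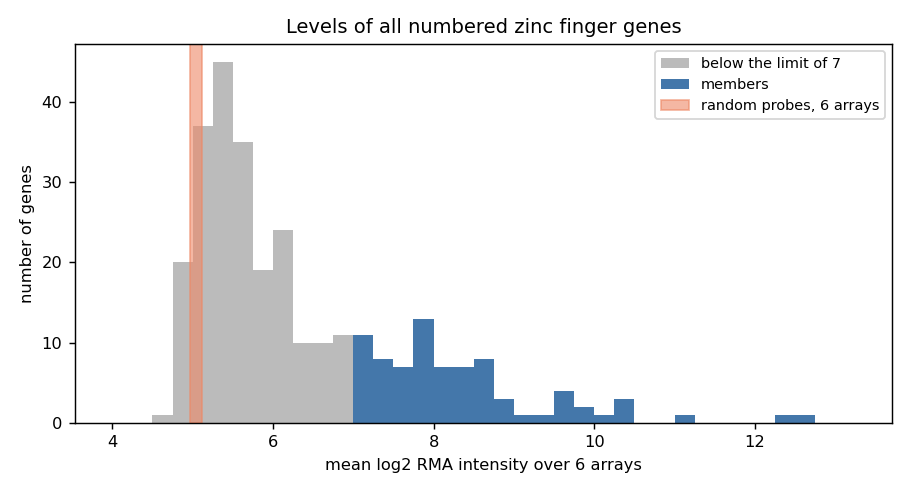
Mean log2 RMA intensity over 6 arrays of the 291 numbered zinc finger genes, as a stacked histogram (79 members blue, 212 genes below the limit of 7 grey), with the range of the random-probe row shaded. Most genes lie within about 1 log2 unit of the random probes, and the members form the right tail.

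The members' places in the genome were uneven. On mm9, 121 of the 291 genes had no other numbered zinc finger gene within 500 kb, and 48 of these (39.7%) were members; in groups of 2 or 3 genes it was 21 of 70 (30.0%), and in groups of 4 or more 10 of 100 (10.0%). Large groups of this kind arise by tandem duplication. The largest, of 16 genes on chromosome 7 (30553622 to 30947755), held 0 members. Chromosome 7 held 71 of the 291 genes, 13 members and 3 of the 7 called, Zfp110, Zfp296 and Zfp507. The kept rows of neighbours did not always have the same sign: Zfp524 and Fiz1, 809 bp apart, read 0.74 ± 0.24 and -0.77 ± 0.26, while Zfp110 and Zfp446, 127270 bp apart, read -1.44 and -0.86. Neither Zfp524 nor Fiz1 passed the threshold (adjusted p = 0.16 and 0.172 by limma), and a dimmer Fiz1 row, with a mean of 6.64, gave 1.03 ± 0.44. Zfp672 and a target similar to protein 135 overlap in position, so the 2 targets may measure 1 gene.

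Other zinc finger families were compared at the same level limit, as counts and medians, against 7.28% lower and 1.12% higher over all features as bright; with so few genes a family, counts of 1 or 2 say little. Of 9 CCCH-type genes, 3 were lower and the median was -0.40; of 10 genes named for BTB domains, 2 were lower (-0.31); of 10 Kruppel-like factors, 1 was lower (-0.17). Of 39 numbered ring finger genes, 5 were lower and 1 higher (0.08), and of 9 PHD finger genes 1 was lower (0.29). None of 12 DHHC genes passed; at an unadjusted p under 0.05 there was 1 lower and 0 higher by limma (median 0.20). The numbered zinc finger genes, at -0.16, lie inside this range.

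**Figure D5:**
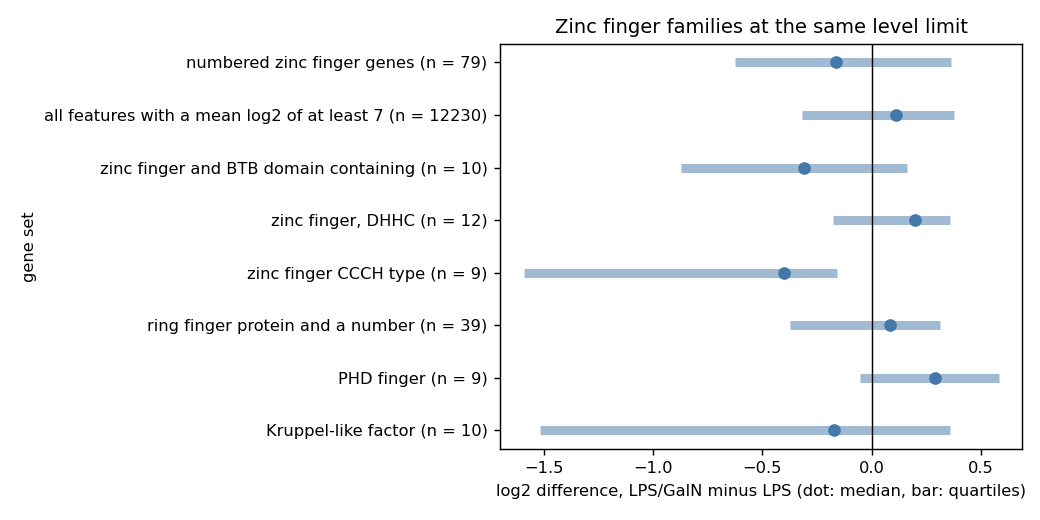
Median (dot) and quartiles (bar) of the log2 difference, LPS/GalN minus LPS, for the numbered zinc finger genes, for all features with a mean of at least 7, and for other zinc finger families at that limit. The numbered genes have a median of -0.16 and all features as bright 0.11; CCCH-type genes have the lowest median, -0.40.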

How the data were processed

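Per the labels, Cy3-labelled liver RNA was hybridised to 6 NimbleGen arrays of 44170 targets with 3 probes each. The authors deposited linear RMA intensity per target, per the submitters' processing notes and the headers of the files; RMA corrects background, equalises arrays and joins the probes of a target, so a global change of RNA per cell is removed. Its version is not given in the sources used here. Median intensity per array was 60.4 to 63.1; with 6 arrays, their number limits the precision. The deposited value table, in the same intensity unit, served as an alternative.

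Intensities were taken to log2. The brightest row per gene name was kept (35208 features), with no filter on dim features. The groups were compared in R 4.3.3 with limma 3.58.1 (lmFit, eBayes, group as the only term, two-sided, Benjamini-Hochberg over all features, threshold 0.05), tested on simulated data. Folds are of log2 means. Symbols came from RefSeq genes (GRCm38.p6), used for names and promoters; positions of targets are mm9 gene intervals from the files, so exon or intron was not examined. KRAB domains of members were not analysed here, and the values of 2 members are not reported here.

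Named members were those called, a list with known roles, the 3 brightest and those next to the level limit; members named beyond these, the role groups and the promoter motifs were chosen after their values were seen. The members and lists were chosen with earlier results of these data known. In all, 20 alternatives were planned and 2 added.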

Additional observations from a re-analysis of the deposited data

Results flagged for a closer look

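Numbered zinc finger genes below the level limit lay outside the comparison, and 3 of the 212 passed the threshold there (limma, adjusted p under 0.05), 0.472% lower and 0.943% higher, against 3.03% and 0.622% of all features. All features include brighter ones, which pass more often (7.28% lower and 1.12% higher with a mean of at least 7). The shares are therefore not at a like level, and no share is given here for features below the limit alone. Zfp395 read 6.13, 6.61 and 5.73 in LPS and 8.13, 7.84 and 7.5 in LPS/GalN, a log2 difference of 1.67 (adjusted p = 0.0211 by limma), with its mean just under the limit. Zfp521, a factor of early haematopoietic and neural cells, read 5.13, 5.05 and 5.26 in LPS, at the level of random probes, and 6.40, 7.20 and 7.24 in LPS/GalN, a difference of 1.80 (adjusted p = 0.0112 by limma). Thymus markers were high on LPS/GalN arrays 2 and 3, and their part in the Zfp521 value was not tested; on array 1, where they were not high, it read 6.40. The gene listed as CDKN1A interacting zinc finger protein 1, which acts in DNA replication, read 7.54, 7.27 and 7.90 in LPS and 6.41, 5.89 and 5.82 in LPS/GalN, a difference of -1.53 (adjusted p = 0.0209 by limma). With 1 array left out, the adjusted p reached 0.0865, 0.0574 and 0.0835 for the 3 genes.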

How the results depend on the processing

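The 6 members lower and 1 higher became 2 to 7 lower and 0 to 1 higher with 1 array left out. Fits that leave 1 array in a group have too little power for a count of members to be read, so none is compared here. They were 10 and 2 with trend and robust variance, 10 and 5 with only features of mean 7 or more fitted, 7 and 2 with 16 added before the log, and 8 and 4 in the deposited value table, which lacks the Zfp949 row. A level limit of 6 gave 7 and 3, a limit of 8 gave 2 and 1, and members without a similarity phrase, added after seeing the data, gave 5 and 0. Of all 35208 features, 1581 were lower and 893 higher with trend and robust variance, and 1297 and 385 with 16 added, against 1067 and 219. It was 1400 and 739 of the 12230 features of mean 7 or more, and 1327 and 637 of the 14517 in the deposited table. In these 4 fits, 12.7%, 8.86%, 12.7% and 10.3% of members were lower. The shares of all features fitted were 4.49%, 3.68%, 11.4% and 9.14% in the same order. No share of features as bright is given here for the limits of 6 and 8. No pairing of mice by replicate number was seen. Deviations from the group means had correlations of 0.002, -0.002 and 0.025 for same-numbered arrays, and of -0.068 to 0.063 for the others. With 3 arrays a group, these values cannot decide whether same-numbered mice shared a batch. With the number as a block, the replicate block, 4 members were lower (5.06%, against 2.26% of all features) and 0 higher. With the mean of all rows of a gene, Zfp1 and Zfp507 missed the threshold (adjusted p = 0.0985 and 0.0891 by limma). The other scalings and ways of joining rows left 5 to 7 lower and 1 higher. Of 512 values of 27 named members under an alternative, 448 kept their direction and side of the threshold, 39 lost the threshold, 11 passed it and 14 changed sign. The sign changes were of uncalled members: Zfp207 read -0.21 without LPS/GalN arrays 2 and 3 and -0.18 as the mean of rows; Zpr1 0.097 without LPS/GalN arrays 2 and 3, 0.037 with quantile normalization and 0.056 with 75th percentile centring; Zfp106 -0.041 and Zfp148 -0.16 without LPS arrays 1 and 2; and Zfp346 0.0023 with 75th percentile centring. With 1 array left out, sign changes were seen for 4 genes, whose lowest and highest values were -0.017 and 0.64 for Zfp503, -0.034 and 0.15 for Zfp106, -0.17 and 0.13 for Zfp346, and -0.16 and 0.24 for Zpr1. The cause was not tested. With 3 mice a group, members near random probes have compressed differences.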

Other observations

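Target rows of a gene did not always give the same value. Of the 79 members, 40 had more than 1 row, with 59 dimmer rows in all; 34 of the 59 had the sign of the kept row. Among the 27 dimmer rows with a mean log2 of at least 7, 20 had that sign. Rows kept under a current name rather than a numbered one also existed: Ggnbp2 gave 0.62 ± 0.27 on its numbered row, with a mean of 7.14, and -0.10 ± 0.21 on a row with a mean of 10.90 under its current name. Tnrc18 gave 0.27 ± 0.31 on its numbered row and -0.73 ± 0.26 on the row under its current name, and neither passed the threshold (adjusted p = 0.716 and 0.203 by limma).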
